A study of Mus musculus with 6 samples.

Results

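The genes described here are markers of cholangiocytes, the epithelial cells that line the bile ducts, together with Tff3, which encodes the secreted trefoil factor 3. There were 9 of them by name, namely Krt7, Krt19, Sox9, Epcam, Cldn7, Cd24a, Spp1, Tff3 and Pkhd1. A gene was measured where a probe set carried that gene's symbol and no other in the array annotation, which held for 8 of the 9 genes among 22180 genes measured in this way. Spp1, which encodes osteopontin, had no such probe set and was not analysed here. Cd24a had 2 probe sets and the other genes had 1 each, and the main value of a gene is its probe set with the highest mean over all 6 arrays. Tff3 was chosen by measured values, since an earlier ranking of these arrays by the difference between the groups named it. The other genes were chosen as known duct markers, but with earlier results of these arrays known. The difference of Tff3 is therefore given as a description, without a test.

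The values are log2 expression from whole-transcript microarrays of liver RNA, with 1 array for each of 6 samples. The knockout group was 3 livers of male C57BL/6N mice aged 2 months that lack cGMP-dependent protein kinase 1 (cGK1, the product of Prkg1) and in which the kinase had been restored in smooth muscle, per the series text. The control group was 3 livers of male C57BL/6N mice of the same age, wild type by the sample labels. The promoter behind the rescue, the deleted part of the gene and whether animals were pooled are not given in the sources used here. The missing kinase and the rescue came together in the knockout group, so their shares in a difference cannot be told apart. Nothing in the labels says that the 3 samples of a group came from separate animals, so the p-values measure the spread between these samples, which may be technical in part.

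Bile ducts are a small part of the liver, whose mass is mainly hepatocytes. Cholangiocytes form a tight, ciliated epithelium that is held together by keratins and claudins, and they modify the bile that flows past them. When the liver is injured, small ducts and duct-like cells can multiply in what is called a ductular reaction, and KRT7, KRT19, SOX9 and EPCAM are commonly used to see these cells. Trefoil factors are small, cysteine-rich peptides best known from the mucus of the gut, and TFF3 is also made by bile duct epithelium. In whole-liver RNA, more cells of a type and more RNA in each such cell cannot be told apart.

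Tff3 lay higher in all 3 knockout livers than in any control, whereas the keratins, Sox9, Epcam, Cldn7 and Pkhd1 overlapped between the groups. Cd24a also lay higher in all 3 knockout livers, but with a smaller distance between the groups. No gene of the group passed the test over all genes, and neither did any other gene. With limma, 0 of 22180 genes (0%) reached an adjusted p of 0.05, while 2334 genes (10.5%) had an unadjusted p under 0.05, with 5.06% of all genes higher and 5.46% lower in the knockout. Groups did not overlap for 16.7% of all genes, with the knockout higher in 7.61% and lower in 9.14%. Of the 8 duct genes, 2 did not overlap and had an unadjusted p under 0.05, Tff3 and Cd24a, both higher in the knockout. Tff3 was chosen for that contrast, so nothing is read from its place in this count. The median difference of the 8 genes, knockout minus control, was 0.15 on the log2 scale, and 0.11 over the 7 genes without Tff3, against 0.0011 over all genes.

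**Figure D1:**
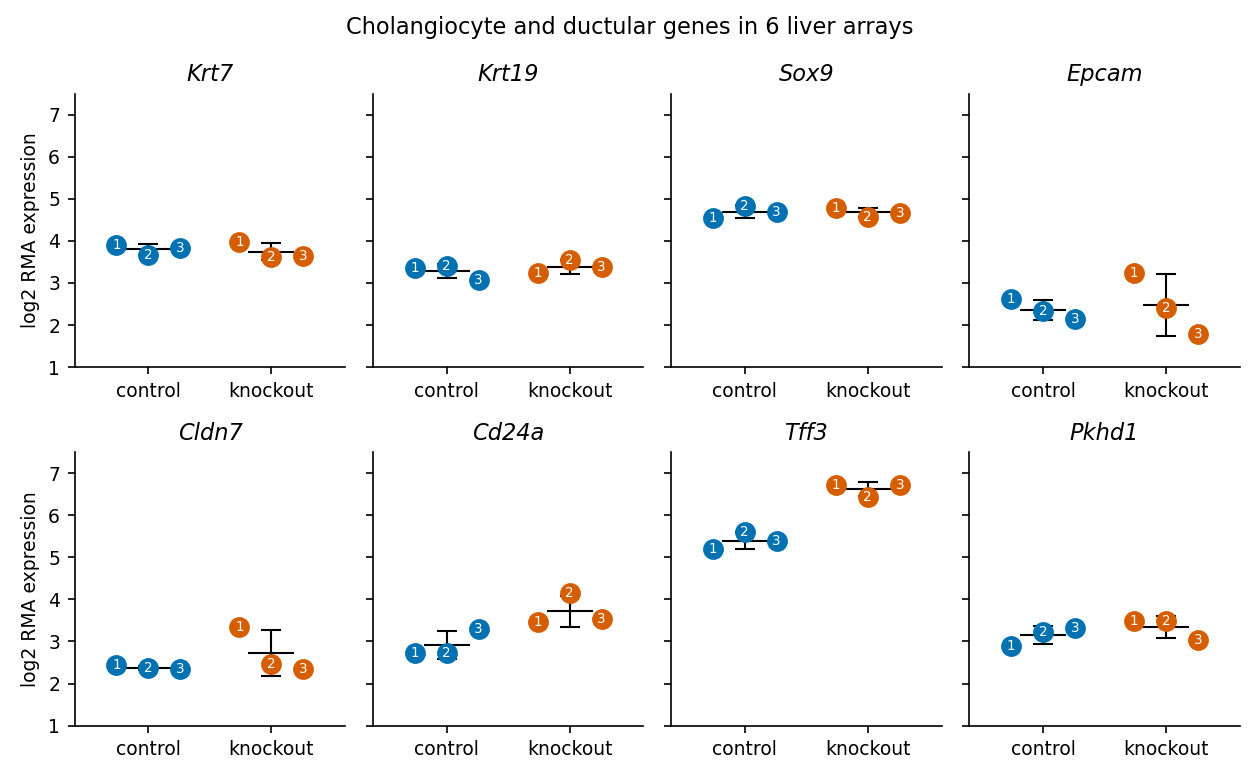
Log2 RMA expression (y axis) of each measured gene in the 3 control and 3 knockout livers. Points are single arrays and carry the replicate number, and the bars are the mean ± SD (n = 3). Tff3 and Cd24a are the panels in which every knockout point lies above every control point, and in Epcam and Cldn7 knockout replicate 1 lies above the other 5 arrays.

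The arrays were alike in scale, with medians from 3.11 to 3.16. Across genes, correlations were 0.989 to 0.990 among control arrays and 0.978 to 0.983 among knockout arrays. Between knockout and control arrays they were 0.978 to 0.983, so the knockout arrays were no more alike than arrays of different groups. Knockout replicate 3 correlated more closely with the controls (0.981 to 0.983) than with the other knockout arrays (0.978 to 0.979). Prkg1, the targeted gene, was at 3.31, 3.04 and 3.22 in knockout replicates 1 to 3 and at 3.32, 2.97 and 2.95 in the controls. These values overlap and are dim, below 3.55, the median over genes of their mean expression, so they do not check the genotype labels. All 13 hepatocyte markers examined lay above that median, as did 3 of the 8 duct genes, Krt7, Sox9 and Tff3. The other 5 duct genes were measured in the dim part of the table. Tff3 is counted among the duct genes for short. Its mean over the 6 arrays was 6.00, while the means of the others ran from 2.42 (Epcam) to 4.68 (Sox9). Which liver cells the Tff3 signal came from was not tested.

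Krt7 and Krt19 encode the intermediate filament proteins that mark the duct epithelium in sections. Krt7 was measured at 3.98, 3.61 and 3.64 in knockout replicates 1 to 3, with controls at 3.90, 3.66 and 3.83. The groups overlapped, and knockout replicate 1 was the highest of the 6 arrays while knockout replicates 2 and 3 were the lowest. The log2 difference of Krt7 was -0.054 (SE 0.15, limma adjusted p = 0.925), with a 95% confidence interval from -0.39 to 0.28. Krt19 was measured at 3.23, 3.55 and 3.37 in the knockout livers, with controls at 3.36, 3.41 and 3.08. Its groups overlapped too, and its difference was 0.10 (SE 0.15, limma adjusted p = 0.844), with an interval from -0.23 to 0.44. Single arrays moved this difference, to 0.00067 without control replicate 3 and 0.18 without knockout replicate 1. As fold differences the intervals ran from 0.763- to 1.22-fold for Krt7 and from 0.850- to 1.35-fold for Krt19. They describe the array values, which were dim for Krt19 and just above the median over genes for Krt7, and set no limit on the change in RNA.

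Sox9 encodes a transcription factor of duct cells and of duct-like progenitors. It was at 4.79, 4.57 and 4.67 in the knockout livers, with controls at 4.54, 4.84 and 4.70. The group means, 4.68 ± 0.11 and 4.69 ± 0.15 (SD, n = 3), lay closer together than the arrays of either group. The difference was -0.014 (SE 0.14, limma adjusted p = 0.982) with an interval of 0.800- to 1.23-fold. Its sign turned with single arrays, to 0.038 without knockout replicate 2 and 0.060 without control replicate 2.

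Epcam encodes an epithelial cell adhesion molecule, and Cldn7 encodes claudin 7, a tight junction protein that binds to it. Epcam expression was 3.25, 2.40 and 1.78 in knockout replicates 1 to 3, against 2.61, 2.34 and 2.14 in the controls. The knockout arrays held both the highest and the lowest of the 6 values, so the spread was wider in the knockout (SD 0.74) than in the control group (SD 0.23). The difference of Epcam was 0.11 (SE 0.32, limma adjusted p = 0.929). Cldn7 was at 3.34, 2.47 and 2.35 in the knockout livers, with controls at 2.43, 2.36 and 2.34. Here 5 arrays lay close together and knockout replicate 1 stood above them. The difference of Cldn7 was 0.34 (SE 0.24, limma adjusted p = 0.644). Without knockout replicate 1 the differences were -0.28 for Epcam and 0.034 for Cldn7, so nearly the whole difference of Cldn7 came from that array. The sign of Epcam turned there and also without control replicate 3, to -0.0032, so it was not stable.

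Cd24a encodes a small, glycosylated surface protein that is anchored in the membrane by a lipid. It is found on cholangiocytes and also on B cells, neutrophils and red cell precursors. Its brighter probe set was at 3.47, 4.15 and 3.52 in knockout replicates 1 to 3 and at 2.73, 2.73 and 3.29 in the controls. All 3 knockout values lay above the highest control, by 0.17 at the nearest point. The difference was 0.80 (SE 0.22), or 1.74-fold with a 95% interval of 1.22- to 2.46-fold, and the limma adjusted p over all genes was 0.306. The exact 2-sided permutation test gave p = 0.1, the smallest that 3 against 3 arrays allow. The dimmer probe set was at 2.72, 3.25 and 2.60 in the knockout and 2.40, 2.10 and 1.69 in the control arrays. It too had no overlap between the groups, with a difference of 0.79 (SE 0.22). Both probe sets were highest in knockout replicate 2, but in the controls the order differed, with replicate 3 the highest by the brighter and the lowest by the dimmer one. The 2 probe sets read the same RNA and are not independent evidence.

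Markers of other cells that carry CD24 or contribute epithelial transcripts were read on the same arrays. As a summed level, expression was taken back to a linear scale and added over a list. The macrophage and Kupffer cell list, with 15 of 15 genes measured, had sums of 1256, 2174 and 969 in knockout replicates 1 to 3 and of 742 to 793 in the controls. Knockout replicate 2, which had the highest Cd24a, also had the highest macrophage sum. It stood above the other 5 arrays in the endothelial sum too (1499 against 869 to 936), in the stellate and fibroblast sum (1319 against 634 to 812) and in the adipocyte sum (181 against 82.1 to 146). The adipocyte sum followed Fabp4 and Cidec, at 6.89 and 5.13 on the log2 scale in knockout replicate 2. The adipocyte genes Adipoq, Plin1, Lep and Retn lay below the median over genes, so this sum does not show more adipocytes. The B cell sum was 192 to 245 in the knockout and 164 to 186 in the control arrays (7 of 8 genes measured), and Ighm, at 6.96 to 7.64 on the log2 scale, was the single gene of this list above the median over genes. The defining B cell genes Ms4a1, Cd79a, Cd79b and Pax5 lay below it. The neutrophil sum was 86.9 to 95.1 against 80.5 to 80.6 (12 of 12 measured), and 11 of those 12 genes lay below the same median. The erythroid sum was 36.7 to 57.8 against 38.0 to 42.8, from only 4 of 10 genes. RMA values have no zero, so a level of 0 cannot be read for any of these genes. Their part in the Cd24a difference was not tested.

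Tff3 expression was 6.71, 6.42 and 6.70 in knockout replicates 1 to 3 and 5.19, 5.60 and 5.39 in control replicates 1 to 3. The groups were separated by 0.82 between the lowest knockout and the highest control array, and both groups were tight, at 6.61 ± 0.16 and 5.39 ± 0.21 (SD, n = 3). The log2 difference was 1.22 (SE 0.15), or 2.33-fold with an interval of 1.83- to 2.96-fold. Tff3 was chosen for this difference, and the SE and interval do not allow for that choice, so they are a description only. Knockout replicate 3, which lay nearer the controls over the whole table, was as high in Tff3 as knockout replicate 1. Leaving out each array in turn gave differences between 1.11 and 1.32.

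**Figure D2:**
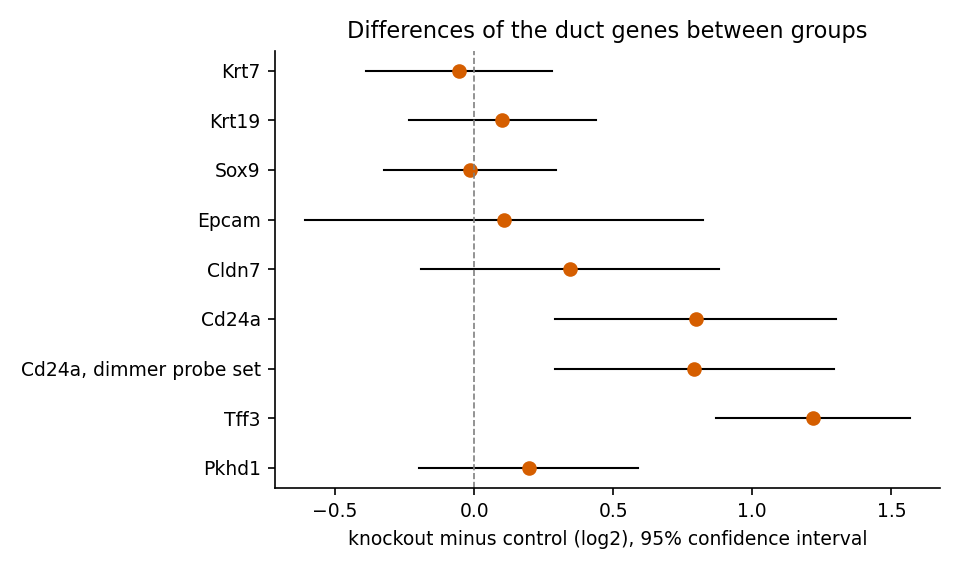
Difference between knockout and control (x axis, log2 units) for each gene, with the 95% confidence interval of the fit over all genes as a line. Tff3 at 1.22 and both probe sets of Cd24a at 0.80 and 0.79 have intervals to the right of 0, and those of the other 6 genes include 0; Tff3 was chosen for this contrast.

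**Figure D3:**
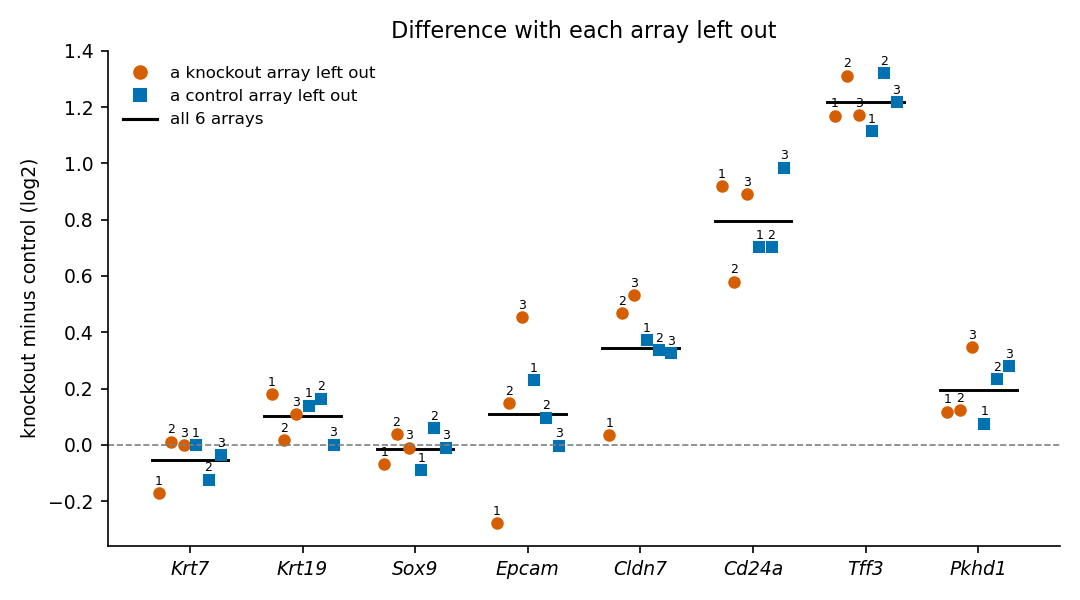
The same difference (y axis, log2 units) recomputed with each array left out, where the number is the replicate left out, circles stand for knockout and squares for control arrays, and the line is the value from all 6. Epcam moves to -0.28 and Cldn7 to 0.034 without knockout replicate 1, while Tff3 stays between 1.11 and 1.32.

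Tff1 and Tff2, the other trefoil peptide genes, were not higher in the knockout. Tff1, named for its relation to Tff3, was at 4.89, 4.32 and 4.40 in the knockout and 4.15, 4.74 and 4.92 in the control arrays, a difference of -0.068 (SE 0.23, limma adjusted p = 0.941). Tff2 was at 4.08, 4.04 and 4.09 in the knockout arrays, just below its controls at 4.37, 4.13 and 4.50, with a difference of -0.26 (SE 0.14, limma adjusted p = 0.537). The list of trefoil, mucin and goblet cell genes had 18 of 18 genes measured, with 10 positive and 8 negative differences and a median of 0.032. None of the 18 had an unadjusted p under 0.05, the smallest belonging to Reg3b (0.26, limma adjusted p = 0.502), an antimicrobial lectin gene that was dim on all arrays. The summed level of this list was 177 to 185 in the knockout and 175 to 189 in the control arrays. The goblet cell genes Fcgbp, Clca1, Zg16 and Agr2 lay below the median over genes.

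The genes nearest to Tff3 in their pattern were found by centring each gene on its control mean and taking the root mean square difference from Tff3 over the 6 arrays, among 11089 genes above the median over genes. They were Phf11b (0.21 log2 units away), the receptor guanylate cyclase gene Gucy2c (0.22), the dicarboxylate transporter gene Slc13a3 (0.28), the heme oxygenase gene Hmox1 (0.29) and Atp11a (0.29), which encodes a lipid-flipping ATPase. Their own differences were 1.195, 1.199, 1.36, 0.96 and 0.97 in that order. None of the 5 was among the duct genes or the lists of other cell types. Nearness to a gene chosen for its difference favours genes with a like difference, so it is a description only.

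**Figure D4:**
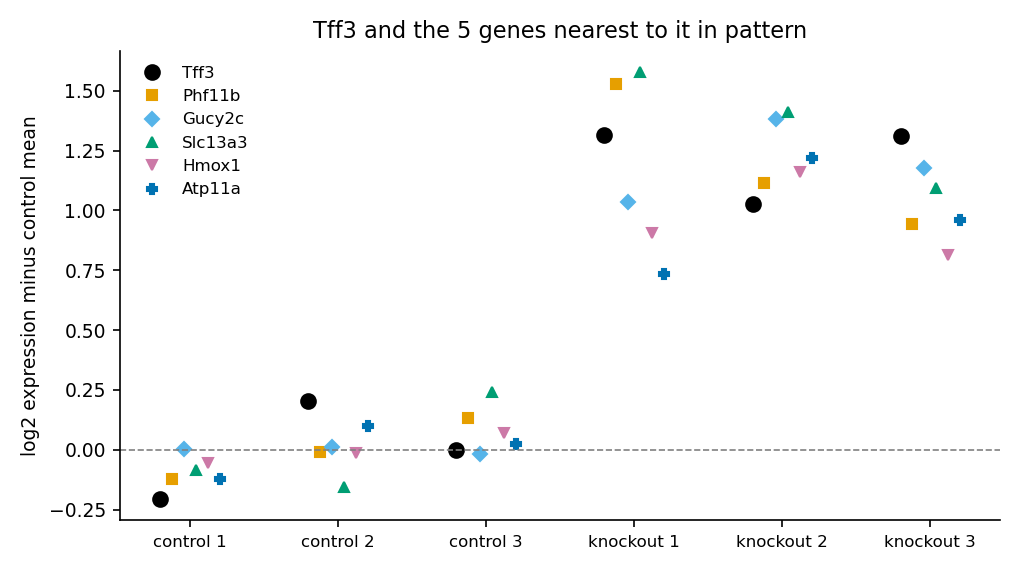
Log2 expression minus the control mean (y axis) of Tff3 and the 5 genes nearest to it on each of the 6 arrays (x axis). On the knockout arrays Tff3 lies highest in replicates 1 and 3, whereas Gucy2c, Hmox1 and Atp11a lie highest in replicate 2.

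Pkhd1 encodes fibrocystin, a protein of the primary cilium whose loss gives cysts of kidney and bile ducts. It was at 3.50, 3.49 and 3.04 in the knockout and 2.90, 3.22 and 3.31 in the control arrays. The groups overlapped, since knockout replicate 3 lay below 2 of the 3 controls. The difference was 0.20 (SE 0.17, limma adjusted p = 0.727). It was 0.075 without control replicate 1 and 0.35 without knockout replicate 3. Other genes of the polycystin and cilium machinery had 4 positive and 5 negative differences among 9 of 12 measured, with a median of -0.083. Dzip1l, a gene of the ciliary transition zone, was lower by value (-0.42, SE 0.17, limma adjusted p = 0.431), as was the polycystin gene Pkd1 (-0.20, SE 0.12, limma adjusted p = 0.599), and neither passed.

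Further genes of cholangiocyte identity lay on both sides of 0. Of 32 listed genes 28 were measured, 19 with positive and 9 with negative differences, a median of 0.057 and 0 calls in either direction. At an unadjusted p under 0.05 there was 1 higher and 1 lower gene among the 28, where 10.5% of all genes reach it. Cldn4, a claudin of duct epithelium, was at 3.55, 3.81 and 3.54 in the knockout and 2.94, 3.20 and 3.31 in the control arrays (difference 0.48, SE 0.15, limma adjusted p = 0.342). Krt23, a keratin of stressed and ductular liver cells, was at 3.23, 2.64 and 2.86 against 3.20, 3.50 and 3.32 (difference -0.43, SE 0.17, limma adjusted p = 0.429). Its groups overlapped through knockout replicate 1. The summed level of the list was 1372, 1585 and 1400 in knockout replicates 1 to 3, on both sides of the controls at 1457 to 1527. A linear sum follows its brightest genes, here Krt18 (mean 7.86), Tm4sf4 (7.58), Cldn3 (7.54), Atp1b1 (7.53) and Krt8 (7.05). Krt8 and Krt18 also stand in the mesothelial list, so they are not particular to ducts. Of the 28 genes, 15 did not lie above the median over genes, so the sum is not a measure of duct content.

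Knockout replicate 1 held the highest value of 5 of the 8 duct genes, namely Krt7, Epcam, Cldn7, Tff3 and Pkhd1. With the further cholangiocyte genes it held the highest value of 13 of 36 genes (36.1%), where it held that of 18.5% of all genes. This count was made after the values were seen and has no test. It includes Tff3, which was chosen for being higher in the knockout, so nothing is read from its place here. Epcam, Cldn7 and Pkhd1 were dim. In Tff3 (6.71 against 6.70) and in Pkhd1 (3.50 against 3.49) another knockout array was nearly as high.

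Claudins and other junction genes, 19 of 20 measured, had a median of 0.045 with 13 positive and 6 negative differences. Cldn4 was the gene with the smallest p here too, followed by Cldn5, a claudin of endothelial cells (-0.43, SE 0.19, limma adjusted p = 0.468). The signalling genes that steer duct fate, Notch and the Hippo effectors YAP and TAZ, had 12 positive and 11 negative differences among 23 measured genes and a median of 0.036. Lats2, a kinase that restrains YAP, was at 4.18, 4.42 and 4.29 in the knockout and 4.63, 4.68 and 4.59 in the control arrays (-0.34, SE 0.13, limma adjusted p = 0.407). Wwtr1, which encodes TAZ, was at 5.57, 5.76 and 5.71 against 5.56, 5.27 and 5.30 (0.30, SE 0.14, limma adjusted p = 0.488). In both genes the groups did not overlap, as in 16.7% of all genes, and neither gene passed.

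Genes of progenitor cells and the ductular reaction, 14 of 18 measured, had a median of 0.046, and their most different members pointed in opposite directions. Igf2bp3, a fetal RNA-binding protein gene, was at 4.19, 4.24 and 3.44 in the knockout and 2.98, 2.91 and 3.18 in the control arrays (0.94, SE 0.21, limma adjusted p = 0.237). Its mean, 3.49, lay below the median over genes. Without knockout replicate 3 its difference was 1.20 and its limma adjusted p 0.019, a setting in which 66 genes passed over all genes. With any other single array left out, the limma adjusted p of Igf2bp3 lay between 0.279 and 0.690. Tnfrsf12a, which encodes the TWEAK receptor that drives progenitor growth, was at 3.41, 4.12 and 4.66 against 5.21, 5.04 and 4.82 (-0.96, SE 0.28, limma adjusted p = 0.313). Its knockout values spread over more than 1 log2 unit, and knockout replicate 3 lay just below the controls. The difference of Tnfrsf12a was -0.63 with knockout replicate 1 left out and -1.26 with knockout replicate 3 left out.

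Osteopontin itself was not analysed here, but the genes of its receptors and of the CD24 receptor Siglecg were all measured. The 10 genes had 7 positive and 3 negative differences and a median of 0.25. Cd44, a receptor for osteopontin and hyaluronan, was at 4.36, 4.66 and 4.18 in the knockout and 4.14, 3.92 and 3.87 in the control arrays (0.42, SE 0.16, limma adjusted p = 0.407). Itga4, an integrin gene of white blood cells, was at 3.60, 4.44 and 3.95 against 3.57, 3.35 and 3.04 (0.68, SE 0.22, limma adjusted p = 0.359). Both were highest in knockout replicate 2, the array with the highest macrophage, endothelial and stellate cell sums. Without that array the differences were 0.29 for Cd44 and 0.46 for Itga4. The part of these cell types in the values was not tested.

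Lists of neighbouring epithelia and other tissues are shown because KRT7, KRT19 and TFF3 are not restricted to bile ducts. Mesothelial genes, of the liver's outer surface, had a median of 0.084 among 10 measured. Muc16 (0.55, limma adjusted p = 0.263) and Krt18 (-0.33, limma adjusted p = 0.502) were the genes of smallest p. Muc16 was dim on all arrays, and Krt18 also stands in the cholangiocyte list. Intestinal epithelial genes had a median of -0.015 among 11, with Fabp2, which hepatocytes also express, at -0.75 (limma adjusted p = 0.221) and Alpi at -0.27 (0.492). Pancreatic acinar genes had a median of 0.0026 among 7, and their sum was 63.3 to 67.1 in the knockout and 63.2 to 67.4 in the control arrays; the genes of smallest p were Cel (0.35, limma adjusted p = 0.556) and Ctrb1 (-0.10, 0.806). Adipocyte genes had a median of 0.034 among 6, with Cidec at -1.22 (limma adjusted p = 0.413) and Fabp4 at 0.99 (0.363). Without knockout replicate 2 Fabp4 was at 0.55, without knockout replicate 3 Cidec was at -0.77, and without control replicate 1 the adipocyte median was -0.024.

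Hepatocyte genes had a median of -0.16 among 13, with 0 genes higher and 4 lower at an unadjusted p under 0.05, where 5.06% of all genes were higher and 5.46% lower. Those of smallest p were Hnf4a (-0.36, SE 0.13, limma adjusted p = 0.399) and Pck1 (-0.36, SE 0.14, limma adjusted p = 0.429). Macrophage and Kupffer cell genes had the highest median of the 18 lists examined, 0.78, with 12 of 15 higher and 0 lower at an unadjusted p under 0.05, against the same shares of all genes. C1qa (0.84) and Marco (0.74) had the smallest p, and the list median was 0.52 without knockout replicate 2. Lists of neutrophils (0.19), erythroid cells (0.18), endothelial cells (0.15), B cells (0.080) and stellate cells with fibroblasts (0.080) had medians between those of the macrophage list and 0. Several of these rested on 1 array. Without knockout replicate 2 the median was -0.045 for endothelial cells, -0.065 for B cells and -0.059 for stellate cells with fibroblasts, and without knockout replicate 1 that of erythroid cells was 0.049. The neutrophil median was 0.13 without control replicate 1. Their genes of smallest p were Mmp8 and S100a8, Ermap and Epb42, Lyve1 and Cdh5, Ighm and Fcer2a, and Col3a1 and Col1a2, with differences from 0.18 (Epb42) to 0.92 (Lyve1). In all 18 lists 0 genes passed an adjusted p of 0.05.

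**Figure D5:**
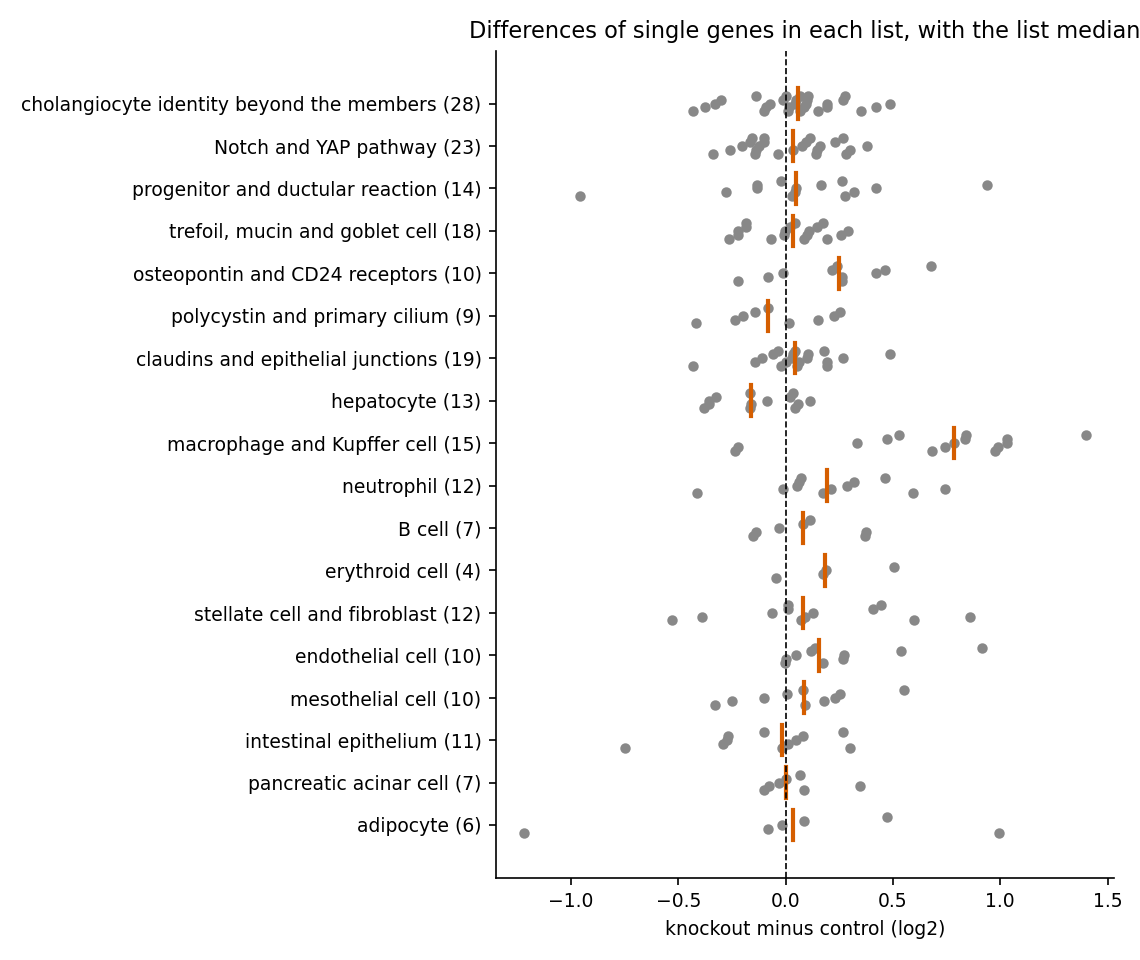
Difference between knockout and control (x axis, log2 units) of every measured gene of each list (grey points, number of genes in brackets), with the median of the list as an orange bar. The median of the macrophage and Kupffer cell list, 0.78, lies away from 0, and that of the further cholangiocyte genes is 0.057.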

How the data were processed

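The submitters' processing notes name RMA and Affymetrix Expression Console 1.4.1. RMA steps correct the background, set arrays to a common distribution and summarise probes. The deposited table holds the authors' log2 expression values of 41345 probe sets on 6 arrays. A shift shared by most transcripts would not be visible in them. No coordinates are printed, since no label names a genome build. Depth is not defined for arrays, where 3 per group limit the precision. Probe sets were named with the platform annotation: 23521 had 1 gene symbol, 1814 several and 16010 were not listed. The brightest probe set per gene left 22180 genes.

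Groups were compared with lmFit and eBayes of limma 3.58.1 (R 4.3.3, statmod 1.5.0), with 2-sided p-values adjusted by the Benjamini-Hochberg method over all genes and a threshold of 0.05. The fit was tested on data simulated from its own variance model, with shifts planted only in genes above the median over genes. That test does not cover dim genes or departures from the model. Members and the 18 lists were chosen with earlier results of these arrays known; 228 of 251 list entries were matched, 2 through another symbol. All members are named, and from each list members past the threshold (up to 6) or else the 2 of smallest p, plus the 5 genes most like Tff3; other names were chosen after their values were seen. Alternatives were centring, quantile normalization, a filter at the median of gene means (3.55), trend and robust variance priors, array weights, a replicate block, the mean of probe sets and leaving out each array. No pair of arrays was identical (0 pairs).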

Additional observations from a re-analysis of the deposited data

How the results depend on the processing

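Over all genes, the 0 calls at an adjusted p of 0.05 (limma) became 16 with dim genes left out, 25 with a variance prior that follows intensity, 1 with the replicate block, and 0 to 66 with single arrays left out (66 without knockout replicate 3, 3 without control replicate 3). The duct genes had 0 calls, and 1 with dim genes left out, with that variance prior and without knockout replicate 3 (range 0 to 1), which was Tff3 each time and supports nothing, since Tff3 was chosen for this contrast; leaving out dim genes removed Cd24a, so 1 duct gene in place of 2 stayed at an unadjusted p under 0.05. List genes had 0 to 3 calls with single arrays left out (3 without knockout replicate 3), and genes at an unadjusted p under 0.05 numbered 1543 (without control replicate 2) to 2734. Near 0, signs turned for Sox9, to 0.018 after quantile normalization and between -0.090 and 0.060 with single arrays left out, for Krt7 (-0.17 to 0.011) and for Epcam (-0.28 to 0.45). The cause was not tested. Tff3 and Cd24a kept their sign under every alternative run, except that Cd24a has no value with dim genes left out (0.58 to 0.99 for Cd24a with single arrays left out). Deviations from the group means over all genes correlated at 0.0064, 0.053 and 0.015 between samples of the same replicate number. No pairing was visible in them, but they include many dim genes and cannot exclude one. The replicate block changed no call of a duct gene, with Cd24a at a limma adjusted p of 0.339. Dim signal limits Krt19, Epcam, Cldn7, Cd24a and Pkhd1. Krt7, with a mean of 3.77, lay just above the limit of 3.55 and is little better measured.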
